A study of Mus musculus with 32 samples.

Results

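The 10 genes described here encode enzymes that remove reactive oxygen species or supply that defence: Sod1, Sod2, Cat, Gpx1, Gpx4, Prdx1, Txnrd1, Nqo1, Hmox1 and Gclc. They were chosen by name. Of the 22337 genes in the expression tables, 9 of the 10 were found by symbol, and Gpx4, whose symbol cell was blank, was found by its Ensembl gene identifier. RNA-seq was performed on the hippocampus (HPC), on the meninges, and on meningeal lymphatic endothelial cells (mLECs) sorted from the meninges, 32 samples in all. Every mouse was a male of 6 months on the C57BL/6J background, and each sample came from 1 mouse.

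The WT groups were littermates that did not carry the transgene. The 5xFAD mice carry mutated human APP and presenilin genes under the Thy1 promoter, which is active in neurons, and they deposit amyloid in the brain. The 5xFAD + light groups were 5xFAD mice whose heads were illuminated with near-infrared light through the shaved, intact scalp for 10 min, 3 times a week for 4 weeks, under isoflurane. The other mice had the same anaesthesia and shaving under indoor lighting. WT mice with light are not analysed here, so that the light comparisons hold for 5xFAD mice alone. HPC had 4 mice in each group, and meninges and mLECs each had 4 WT, 3 5xFAD and 3 5xFAD + light mice. The study measured mitochondrial superoxide in mLECs, so the comparisons of these enzymes address whether transcripts of the antioxidant defence differed with genotype or with light in each tissue.

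Superoxide is formed mainly where electrons leak from the mitochondrial respiratory chain and by NADPH oxidases of phagocytes. Superoxide dismutases turn it into hydrogen peroxide, SOD1 in the cytosol and SOD2 in the mitochondrial matrix. Catalase then splits the peroxide, and the glutathione peroxidases and the peroxiredoxins reduce it, with glutathione or thioredoxin as the electron source. NQO1, HMOX1 and GCLC belong to the set of genes that the transcription factor NRF2, encoded by Nfe2l2, switches on under oxidative stress. In the brain, astrocytes and microglia express much of this set, and HMOX1 is prominent in macrophages that break down heme.

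NRF2 binds the antioxidant response element, whose core was searched for as TGACNNNGC on both strands of RefSeq promoter windows of 300 bases, 250 before and 50 after each start site (GRCm38.p6). The table held promoters of 8 of the 10 genes, all but Hmox1 and Gclc. Of their 13 promoters 3 held the core, which 4071 of 32851 promoters of all genes (12.4%) also held. The 3 matches are shown as matches to the letters of the core. Nqo1, the only gene of the NRF2 set named above that had a promoter in the search, had no match. Capitals mark the core, which reads on the minus strand, and each sequence is given 5′ to 3′ on the plus strand.
Prdx1 promoter, chr4:116685446-116685494: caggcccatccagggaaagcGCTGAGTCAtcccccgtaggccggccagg
Txnrd1 promoter, chr10:82859094-82859142: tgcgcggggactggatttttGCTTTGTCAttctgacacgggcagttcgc
Sod1 promoter, chr16:90220686-90220734: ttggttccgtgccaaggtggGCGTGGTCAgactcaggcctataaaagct
The core lay 133 bases before the start site in Prdx1, 92 in Txnrd1 and 56 in Sod1. The Prdx1 and Sod1 windows are outside the annotated gene, and the Txnrd1 window is in an intron of the longest gene model. A match describes letters in this window and not a bound site.

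All 10 genes passed the filter on low values in every tissue. Read totals were 13952825 to 23856476 expected counts in HPC, 6601143 to 14708202 in meninges and 14231415 to 24207326 in mLECs, and the sorted libraries detected 5998 to 9020 genes against 16371 or more elsewhere. Neuronal markers (Rbfox3, Snap25, Syt1, Camk2a, Slc17a7) summed to 2683 to 4076 FPKM in HPC and to at most 443 in meninges, where choroid plexus markers (Ttr, Folr1, Kl, Aqp1, Clic6) summed to 15651 or more. Among HPC libraries, WT replicate 2 and 5xFAD replicates 1 and 2 stood apart with choroid plexus sums of 2790, 3186 and 2915 FPKM. Among mLEC libraries, WT replicates 2 and 4 held little of the lymphatic markers (Prox1, Lyve1, Pdpn, Flt4, Ccl21a), with sums of 37.9 and 36.0 FPKM against 1067 to 9572 in the other 8. These 2 libraries went against their label, and values without either set of libraries are given beside the enzymes that moved most or lost a call without them.

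FPKM values (fragments per kilobase of transcript, scaled to the mapped fragments of a library) give levels per length, and the enzymes spanned a wide range. In HPC the superoxide dismutase Sod1 and the lipid peroxidase Gpx4 were the most abundant, with medians over 12 mice of 851 and 718 FPKM. Sod1 ranked 69 and Gpx4 ranked 79 among the 12215 genes with a mean of at least 1 FPKM in WT HPC. Next came the thioredoxin-dependent peroxidase Prdx1 at 245, the cytosolic glutathione peroxidase Gpx1 at 108, the mitochondrial dismutase Sod2 at 37.5 and catalase (Cat) at 22.3. The remaining genes of the order were the thioredoxin reductase Txnrd1 at 11.7, the heme oxygenase Hmox1 at 8.55, the quinone reductase Nqo1 at 5.90 and Gclc, the catalytic subunit of the rate-limiting enzyme of glutathione synthesis, at 3.49. Neighbours in this order overlapped in range (Sod1 at 765 to 1021 and Gpx4 at 587 to 870, for example), except between Gpx4 and Prdx1, Gpx1 and Sod2, and Cat and Txnrd1.

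In meninges Gpx4 and Sod1 again led, with medians over 10 mice of 1499 and 1452 FPKM and overlapping ranges. Prdx1 followed at 491, Gpx1 at 438 and Cat at 48.2. Nqo1 had a median of 39.5, Sod2 of 26.1, Hmox1 of 24.0, Gclc of 12.0 and Txnrd1 of 10.2 FPKM. Neighbours overlapped except between Sod1 and Prdx1 and between Gpx1 and Cat. In mLECs, whose table was normalised separately, Sod1 led at 1841 (1409 to 2555), followed by Gpx1 at 678 (360 to 1006), Prdx1 at 354, Gpx4 at 329 and Hmox1 at 256 (108 to 474). Sod2 had a median of 77.3, Txnrd1 of 37.4, Cat of 19.8, Nqo1 of 1.38 and Gclc of 1.09 FPKM in the sorted cells. Only Sod1 stood clear of its neighbour there. FPKM of the last 5 genes varied widely between mLEC libraries, with coefficients of variation over the 10 mice from 60.8% for Sod2 to 142% for Nqo1. For Sod2 the FPKM did not follow the expected counts, as given below.

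Within the 5xFAD HPC, the glutathione peroxidase Gpx1 and the heme oxygenase Hmox1 rose, and no other of the 10 enzymes passed the test. Gpx1, which reduces hydrogen peroxide with glutathione and lies at chr9:108338903-108340343 (mm10, plus strand), was at 95.8, 89.8, 95.3 and 83.2 FPKM in the 4 WT mice and at 172, 124, 163 and 140.1 in the 4 5xFAD mice. Every 5xFAD mouse was above every WT mouse. The log2 fold change was 0.74 ± 0.14 (SE), 1.67-fold, with an adjusted p of 0.00404 (edgeR quasi-likelihood test, Benjamini-Hochberg over all 12981 tested genes). Hmox1, which breaks heme down to biliverdin, iron and carbon monoxide and lies at chr8:75093621-75100589 (mm10, plus strand), was at 7.6, 6.37, 6.63 and 6.77 FPKM in WT and at 17.3, 10.01, 8.53 and 15.2 in 5xFAD mice. These groups also did not overlap, and the 5xFAD mice differed among themselves by more than the WT mice did. The log2 fold change of Hmox1 was 0.91 ± 0.22, 1.88-fold, with an adjusted p of 0.0195 (edgeR).

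The background of this comparison was broad, since 8.54% of all tested genes passed the test (1108 genes, 841 of them higher), so that 2 of 10 genes is a small number to set against it. The median log2 fold change was 0.35 over the 10 enzymes and 0.01 over all tested genes. The call of Gpx1 remained when any 1 of the 8 libraries was left out. The call of Hmox1 was lost in 4 of these 8 settings (without WT replicate 2, 3 or 4, or without 5xFAD replicate 1), with adjusted p-values of 0.0525 to 0.0584 (edgeR). Without the 3 libraries of high choroid plexus sum, Gpx1 remained called (log2 fold change 0.73, adjusted p = 0.0407, edgeR) and Hmox1 did not (0.75, adjusted p = 0.139).

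Sod1, Gpx4 and Prdx1 had groups that did not overlap in HPC but did not pass the test. Sod1 was 789, 792, 835 and 846 FPKM in WT and 855, 914, 1021 and 915 in 5xFAD mice (log2 fold change 0.19 ± 0.09, adjusted p = 0.231, edgeR). Gpx4, which reduces lipid peroxides in membranes, was 696, 679.7, 718 and 717 FPKM in WT and 851, 834, 870 and 776 in 5xFAD mice (0.25 ± 0.12, adjusted p = 0.222). Prdx1 was 216, 211, 233 and 198 FPKM in WT and 312, 257, 280.0 and 260.5 in 5xFAD mice (0.37 ± 0.14, adjusted p = 0.131). With Gpx1 and Hmox1 this made 5 of 10 enzymes with non-overlapping groups, all with 5xFAD above WT, against 14.5% of all tested genes in either direction. The differences of Sod1, Gpx4 and Prdx1 were 1.14-fold to 1.29-fold.

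The other 5 enzymes overlapped between 5xFAD and WT in HPC. The mitochondrial Sod2 was the reverse of the cytosolic Sod1 in sign, at 43.0, 45.0, 46.6 and 40.3 FPKM in WT and 31.4, 37.4, 37.4 and 40.8 in 5xFAD mice. Its log2 fold change of −0.25 ± 0.09 had an adjusted p of 0.104 with edgeR and of 0.0317 with DESeq2. Cat (0.33 ± 0.14), Nqo1 (0.41 ± 0.20) and Gclc (0.36 ± 0.21) had adjusted p-values of 0.164 to 0.309, and Txnrd1 gave −0.12 ± 0.16. Without the libraries of high choroid plexus sum, Cat was at 0.17 ± 0.15 and Txnrd1 at −0.35 ± 0.21, with adjusted p-values of 0.579 and 0.389 (edgeR). A p-value that misses the threshold does not show that these transcripts were alike in both genotypes.

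**Figure D1:**
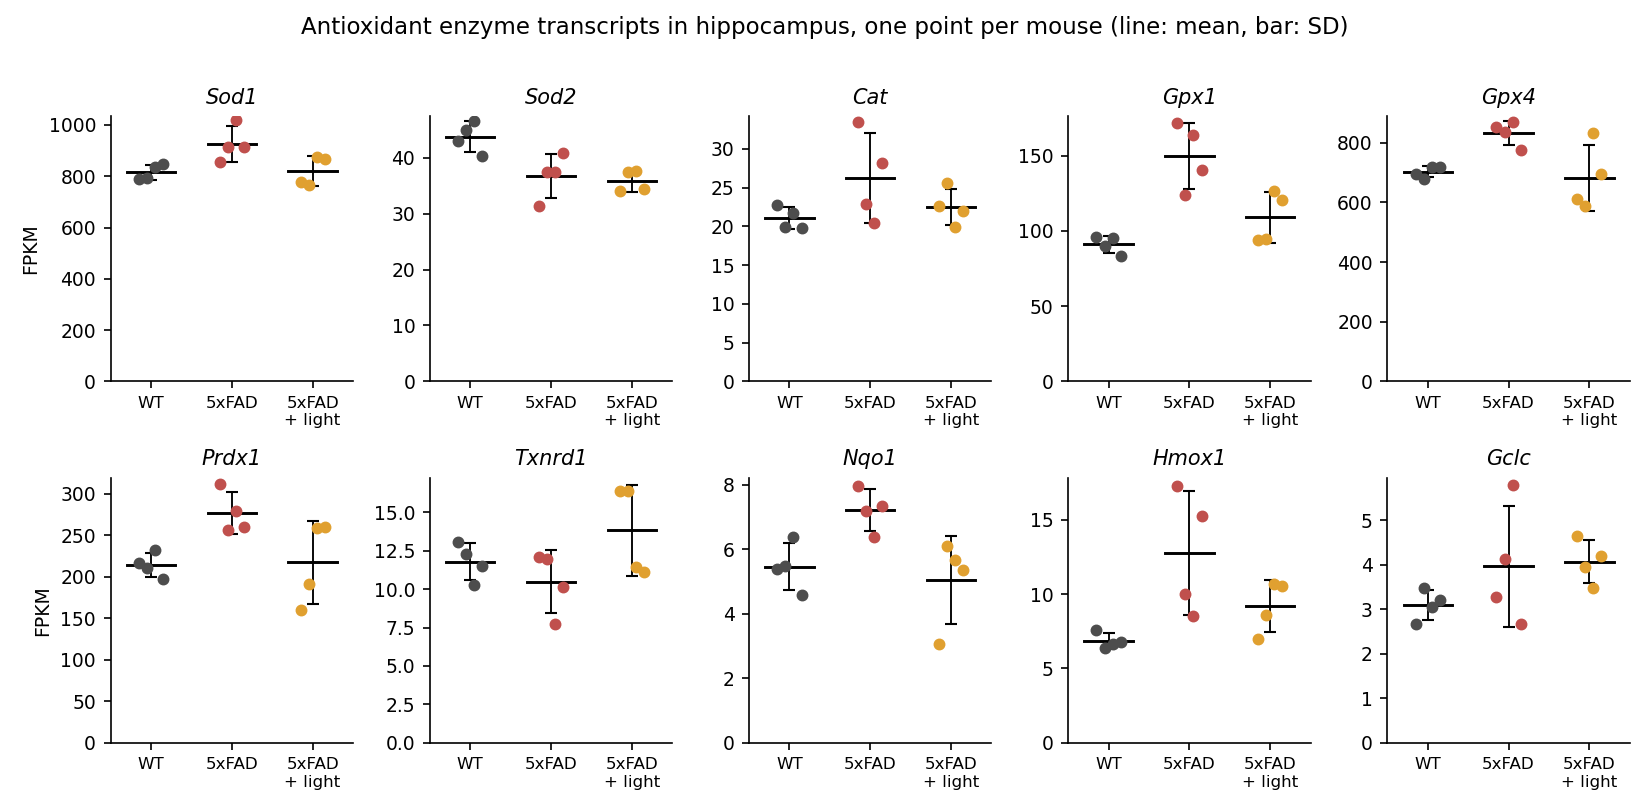
FPKM (y axis, from 0) of each of the 10 enzymes in the hippocampus of WT, 5xFAD and 5xFAD + light mice, 1 point per mouse, with the mean as a line and the SD as a bar (n = 4 per group). Gpx1 lies between 124 and 172 in 5xFAD mice, above all WT mice at 83.2 to 95.8, and the light-treated mice lie at 94.1 to 126.

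With light, none of the 10 enzymes passed the test in HPC against untreated 5xFAD mice, where 0.455% of all tested genes did. By DESeq2 the count was also 0. At an unadjusted p under 0.05 there were 6 of the 10 enzymes, Gpx1, Gpx4, Prdx1, Nqo1 and Hmox1 with values below those of untreated 5xFAD mice and Txnrd1 with values above, and 18.3% of all tested genes were under that p. Gpx1 was 94.1, 94.4, 126 and 121 FPKM in the light-treated mice, so that 1 of them lay above the lowest untreated mouse (log2 fold change −0.44 ± 0.14, adjusted p = 0.137, edgeR). Nqo1 (chr8:107388225-107403206, mm10, minus strand), which reduces quinones by transferring electron pairs, was 7.98, 7.18, 6.37 and 7.36 FPKM in untreated and 3.06, 6.11, 5.68 and 5.35 in light-treated 5xFAD mice. It was the 1 of the 10 enzymes whose groups did not overlap here, against 7.63% of all tested genes, with a log2 fold change of −0.52 ± 0.20 (adjusted p = 0.191, edgeR).

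Hmox1 was 7.01, 8.57, 10.7 and 10.6 FPKM in light-treated HPC, inside the span from the WT to the untreated 5xFAD mice (−0.48 ± 0.22 against untreated, adjusted p = 0.265, edgeR). Gpx4 (−0.30 ± 0.12) and Prdx1 (−0.31 ± 0.14) had adjusted p-values of 0.208 and 0.263. Txnrd1, which keeps thioredoxin reduced with NADPH, was 12.1, 12.0, 7.74 and 10.2 FPKM in untreated and 16.4, 16.4, 11.4 and 11.1 in light-treated mice (0.39 ± 0.16, adjusted p = 0.234). Without the libraries of high choroid plexus sum the log2 fold change of Txnrd1 was 0.63 ± 0.20 (adjusted p = 0.149, edgeR). The groups of Txnrd1 overlapped, and replicates 1 and 2 of the light-treated mice were the high ones. Sod1, Sod2, Cat and Gclc had log2 fold changes of −0.23 to 0.04 and adjusted p-values of at least 0.340.

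Against WT, light-treated 5xFAD mice also showed no enzyme past the test in HPC with edgeR, where 3.59% of all tested genes passed, while DESeq2 called 1, and 2 of the 10 enzymes and 16.7% of all tested genes were under an unadjusted p of 0.05. Sod2 was 34.0, 37.4, 37.7 and 34.4 FPKM with light, below all 4 WT mice (−0.29 ± 0.09, adjusted p = 0.109 with edgeR and 0.0232 with DESeq2). Gclc was 2.67, 3.48, 3.06 and 3.21 FPKM in WT and 4.65, 3.95, 3.49 and 4.19 with light, also without overlap (0.40 ± 0.21, adjusted p = 0.360, edgeR). Non-overlap in this comparison was found for 14.9% of all tested genes. Gpx1 was above WT by 0.30 ± 0.14 on the log2 scale (adjusted p = 0.293). The comparisons with light and with WT share the untreated 5xFAD mice or the light-treated mice, so that their values are not independent of each other.

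Markers of other cells differed between the HPC groups together with these transcripts. All 5 microglial markers (Csf1r, Aif1, C1qa, Cx3cr1, Ptprc) were detected, and their sum was 156 to 177 FPKM in WT, 458 to 859 in 5xFAD and 351 to 617 in 5xFAD + light mice. The sum of plaque-associated microglial markers (Trem2, Cst7, Itgax, Clec7a, Tyrobp) was 96.8 to 118 in WT, 749 to 1360 in 5xFAD and 503 to 1142 with light. Astrocyte markers (Gfap, Aqp4, Aldh1l1, Slc1a3, Gja1) summed to 581 to 706, 739.6 to 3093 and 1110 to 1513 FPKM, and neuronal markers to 3681 to 4076, 2683 to 3620 and 3527 to 3971. The part of these markers in the values of Gpx1 and Hmox1 was not tested, and in bulk tissue more cells of a type and more RNA per cell cannot be told apart. Choroid plexus sums were 36.0 to 2790 FPKM in WT, 205 to 3186 in 5xFAD and 62.2 to 243 with light.

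Fold changes also varied with exonic length, counted over all annotated exons of a gene. Across 12971 tested genes of known exonic length, Spearman's rho of log2 fold change with length was −0.235 for 5xFAD against WT and 0.248 for 5xFAD + light against 5xFAD in HPC, a description across genes that are not independent replicates. In meninges it was 0.185 for 5xFAD against WT, −0.269 for light against untreated and −0.141 for light against WT over 14304 genes. Gpx1 (1441 bases), Nqo1 (1553), Gpx4 (1724) and Hmox1 (1751) are the shortest of the 10 by exonic length. The length behind a deposited FPKM value can be shorter and give another order. Sod1, with 3970 exonic bases, had 12269 counts at 789 FPKM in HPC WT replicate 1. Gpx4 had 15111 counts at 696 FPKM there, so the length behind the FPKM of Sod1 was the shorter. The deciles and the offset below use exonic length alone. For 5xFAD against WT in HPC, the median log2 fold change was 0.19 in the lowest decile of length, which holds Gpx1, Nqo1 and Gpx4. It was 0.08 in the next decile, which holds Hmox1. With each library's trend on length entered as an offset, Gpx1 was at 0.58 ± 0.11 (adjusted p = 0.00495, edgeR) and Hmox1 at 0.79 ± 0.21 (adjusted p = 0.0367). Nqo1 with light against untreated was then at −0.38 ± 0.20 (adjusted p = 0.325), and Gpx4 for 5xFAD against WT at 0.12 ± 0.09.

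**Figure D2:**
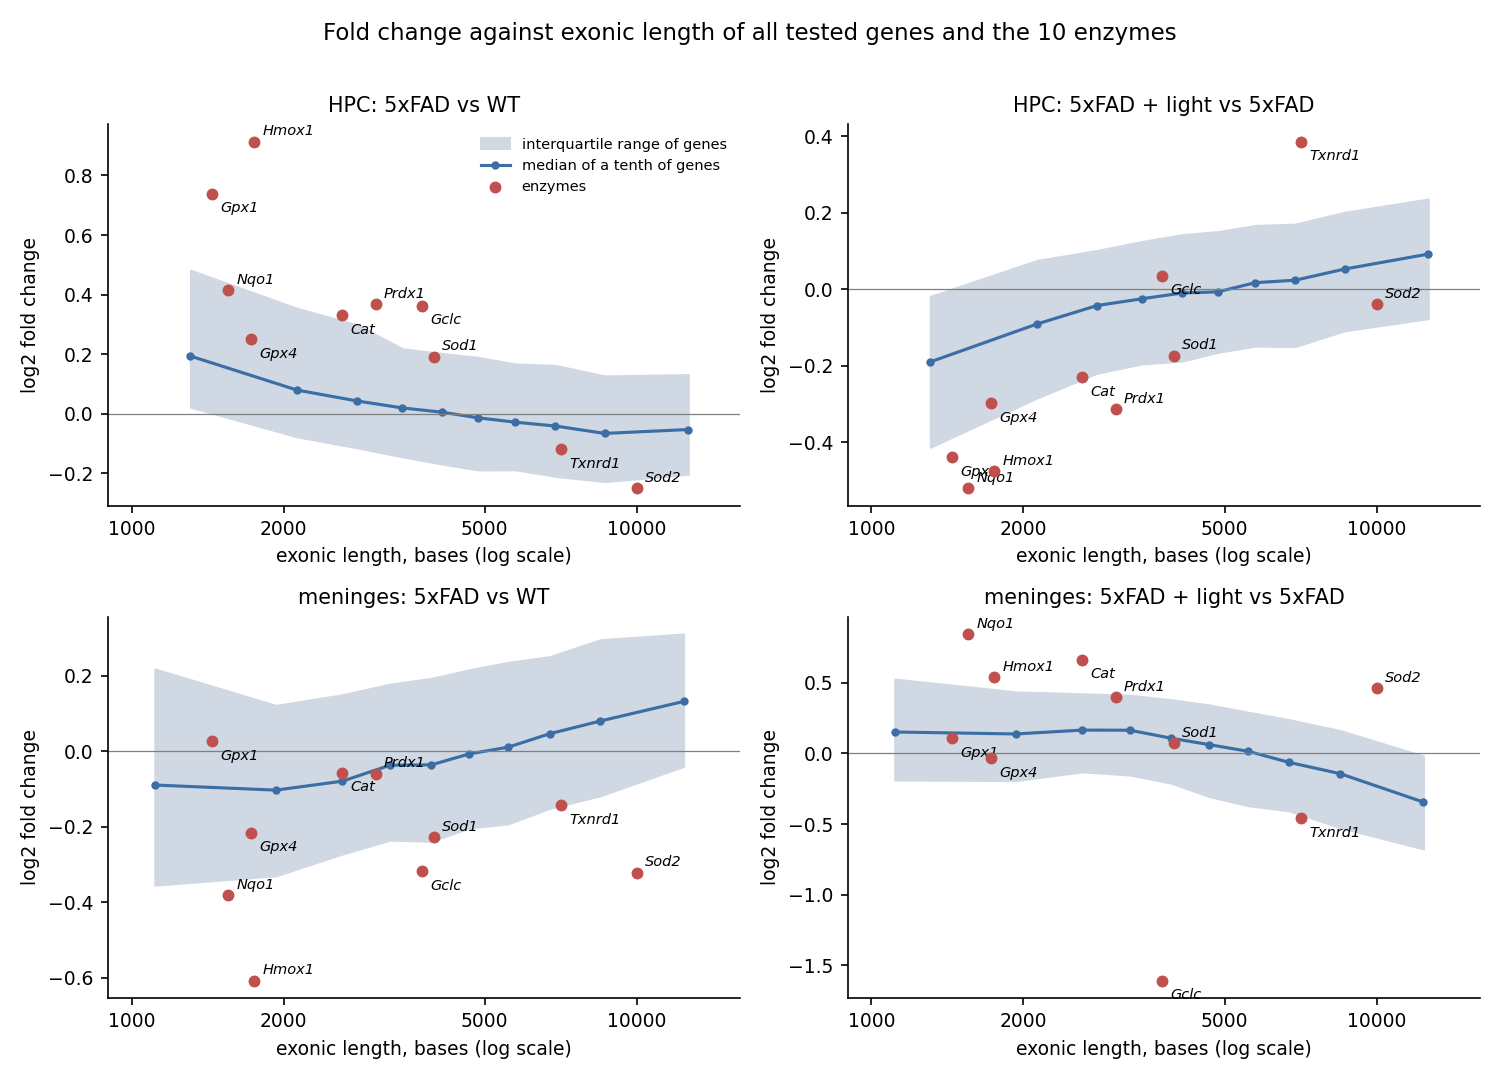
Log2 fold change (y axis) against exonic length in bases (x axis, log scale) in HPC and meninges. The line joins the medians of deciles of all tested genes by length, the band spans the interquartile range, and red points are the 10 enzymes. In HPC, 5xFAD against WT, Gpx1 and Hmox1 lie above the band at 0.74 and 0.91. Prdx1, Cat and Gclc also lie above it at 0.37, 0.33 and 0.36, and Sod2 lies below it at −0.25.

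In meninges no enzyme passed the test in any comparison with edgeR. Between 5xFAD and WT mice 0 of the 10 enzymes passed, 0 were under an unadjusted p of 0.05 and DESeq2 called 0, and none of the 14318 tested genes passed with edgeR (0% called). Log2 fold changes of the 10 enzymes ran from −0.61 ± 0.37 for Hmox1 to 0.03 ± 0.29 for Gpx1, and 9 of the 10 were below 0, of which Cat, Gclc and Prdx1 changed sign when single libraries were left out. The median was −0.22 over the 10 enzymes and −0.003 over all tested genes. The enzymes were read in the same libraries, so their signs are not independent. Sod2 was the 1 enzyme whose groups did not overlap, at 26.0, 26.1, 26.7 and 24.3 FPKM in WT and 20.9, 22.4 and 18.9 in 5xFAD mice (−0.32 ± 0.20, adjusted p = 0.987, edgeR), where 4.85% of all tested genes did not overlap. Hmox1 was 46.7, 25.8, 17.1 and 28.2 FPKM in WT and 18.1, 23.4 and 16.4 in 5xFAD mice, so that WT replicate 3 lay among the 5xFAD mice.

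With light, Gclc had the largest log2 fold changes of the 10 enzymes in meninges. The gene lies at chr9:77754535-77794485 (mm10, plus strand), and its level was 12.98, 8.49, 18.4 and 33.0 FPKM in WT, 16.2, 16.5 and 11.1 in 5xFAD and 5.8, 3.29 and 5.08 in 5xFAD + light mice. Every light-treated mouse was below every mouse of both other groups. The log2 fold change was −1.61 ± 0.44 against untreated 5xFAD mice (adjusted p = 0.286, edgeR) and −1.93 ± 0.42 against WT (adjusted p = 0.107). With DESeq2 both passed, at adjusted p-values of 0.0354 and 0.000529. With edgeR the difference from WT passed once, when WT replicate 2 was left out (adjusted p = 0.0290). The percent of all tested genes called with edgeR was 0.014 in each of these comparisons.

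Nqo1, Cat, Sod2 and Prdx1 differed in the other direction in the light-treated meninges, again without passing the test. Nqo1 was 19.3, 29.0 and 35.1 FPKM in untreated and 48.9, 55.2 and 46.6 in light-treated 5xFAD mice, which were also above the WT mice at 43.9, 45.8, 27.5 and 28.2 (0.84 ± 0.29 against untreated, adjusted p = 0.303, edgeR). Cat, which splits hydrogen peroxide in peroxisomes, was 39.1, 29.7 and 55.3 FPKM untreated and 60.8, 70.2 and 66.3 with light, against 37.6 to 50.4 in WT (0.66 ± 0.25, adjusted p = 0.330). Sod2 was 26.4, 34.0 and 34.5 FPKM with light, above the untreated 5xFAD mice and overlapping WT (0.46 ± 0.21, adjusted p = 0.387). With the length offset Sod2 was at 0.68 ± 0.22 (adjusted p = 0.328), Nqo1 at 0.70 ± 0.27, Cat at 0.52 ± 0.24 and Gclc at −1.68 ± 0.46 (edgeR). The offset value of Sod2 rests on its 10008 exonic bases, in the highest decile, where the median log2 fold change was −0.345. The length behind its FPKM can be shorter. Prdx1 was 365, 434 and 430.3 FPKM untreated and 730.4, 548 and 646 with light (0.40 ± 0.27, adjusted p = 0.530). With Gclc, 5 of the 10 enzymes did not overlap between light-treated and untreated 5xFAD mice, where 20.8% of all tested genes did not. Against WT there were 3 (Nqo1 and Cat above, Gclc below), with 12.3% of all tested genes.

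Under an unadjusted p of 0.05 were 4 enzymes (Gclc, Nqo1, Cat, Sod2) against untreated mice, with 12.7% of all tested genes, and 3 (Gclc, Cat, Txnrd1) against WT, with 16.4%. Txnrd1 was 15.2, 8.87, 11.1 and 14.3 FPKM in WT and 9.15, 9.25 and 5.69 with light (−0.60 ± 0.25, adjusted p = 0.270, edgeR). Sod1, Gpx1, Gpx4 and Hmox1 had log2 fold changes of −0.03 to 0.54 between light-treated and untreated mice, and their groups overlapped. Replicate 1 of the light-treated meninges stood apart in blood markers, with an erythroid sum of 31980 FPKM against 3266 to 12030 in the other 9 and a neutrophil sum of 7254 against 508 to 2965. That library held the highest Gpx1 of the meninges at 684 FPKM, the highest Prdx1 and the highest Hmox1 of its group at 42.9. Summed markers of every cell type on the lists overlapped between the light-treated and the other meninges. Of 59 single markers, 4 lay above both other groups in the light-treated mice (Cx3cr1, Clec7a, Pdpn, Lum) and 1 below (Camk2a). The neuronal Camk2a was 3.06 to 7.25 FPKM with light, 12.3 to 18.3 untreated and 11.1 to 47.0 in WT, and the microglial Cx3cr1 was 12.5 to 17.4, 4.81 to 9.21 and 3.15 to 8.4. Clec7a was 9.43 to 14.3, 2.42 to 8.12 and 3.03 to 5.48. The other markers on the neuronal, microglial and plaque-associated lists overlapped. The neuronal sum was 111 to 363 FPKM with light and 85.05 to 252 untreated. The part of blood cells, neurons or microglia in the values of Gclc, Nqo1 and the other enzymes was not tested.

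**Figure D3:**
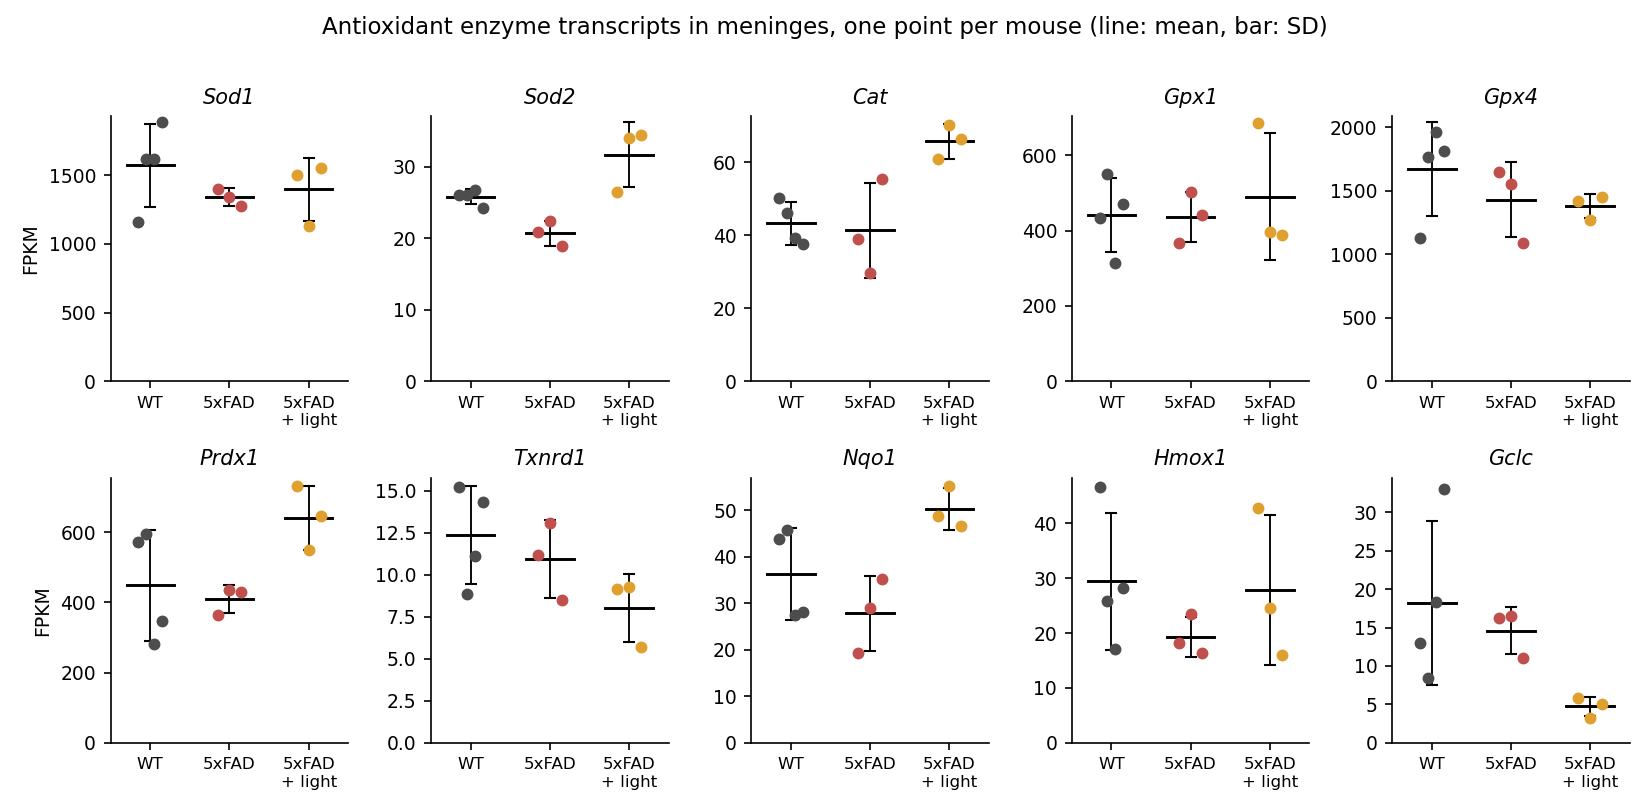
FPKM (y axis) of each of the 10 enzymes in the meninges, 1 point per mouse, with the mean as a line and the SD as a bar (n = 4 WT, 3 5xFAD, 3 5xFAD + light). The light-treated mice lie lowest for Gclc, at 3.29 to 5.8, and highest for Nqo1, at 46.6 to 55.2.

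More of the enzymes passed between tissues than between conditions, as did more of all tested genes. Between WT meninges and WT HPC, 8 of the 10 enzymes were higher in meninges, Sod2 was lower and Txnrd1 did not pass, where 73% of all 15132 tested genes passed. On the log2 scale the differences were 2.66 ± 0.24 for Nqo1, 2.47 ± 0.33 for Gclc, 2.23 ± 0.21 for Gpx1 and 2.04 ± 0.32 for Hmox1, which are 6.33-fold, 5.55-fold, 4.70-fold and 4.11-fold. Prdx1 (1.14 ± 0.18), Gpx4 (1.12 ± 0.17), Cat (0.97 ± 0.18) and Sod1 (0.87 ± 0.15) were higher by 1.82-fold to 2.21-fold. The largest adjusted p of these 8 was 7.99e-05 (edgeR). Sod2 was lower by 1.83-fold (−0.87 ± 0.12, adjusted p = 1.99e-06), at 24.3 to 26.7 FPKM in WT meninges and 40.3 to 46.6 in WT HPC. Txnrd1 was at 0.04 ± 0.20 (adjusted p = 0.848), with 12.4 ± 2.92 FPKM (SD, n = 4) in meninges and 11.8 ± 1.20 in HPC. The median log2 difference of all tested genes was 0.12, and that of the 10 enzymes was 1.13. With the length offset the 9 calls remained and several differences were smaller, with Nqo1 at 1.89, Hmox1 at 1.38, Gpx1 at 1.37, Cat at 0.66 and Gpx4 at 0.44 on the log2 scale, so that Gclc (2.46) then had the largest. The choroid plexus sums of 15651 to 41787 FPKM in WT meninges and 36.0 to 2790 in WT HPC differed along with these enzymes, and their part was not tested.

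Whether the 5xFAD or light effect itself differed between HPC and meninges was tested as an interaction in the same fit, and no enzyme passed with edgeR. For the 5xFAD effect, where 1.74% of all tested genes passed, all 10 enzymes had a lower log2 fold change in meninges than in HPC, though Sod2 (−0.08) and Txnrd1 (−0.04) changed sign in some settings, and 3 were under an unadjusted p of 0.05, as were 12.8% of all tested genes. The median difference was −0.45 over the 10 enzymes and −0.11 over all tested genes. Hmox1 differed by −1.54 ± 0.45 (adjusted p = 0.0952 with edgeR, 0.0384 with DESeq2), from 0.91 in HPC and −0.61 in meninges, and its edgeR adjusted p was 0.0383 without meninges WT replicate 3. Gpx1 differed by −0.71 ± 0.30 (adjusted p = 0.307), and by −0.38 ± 0.24 with the length offset (adjusted p = 0.594).

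For the light effect, where 1.05% of all tested genes passed, 7 enzymes were under an unadjusted p of 0.05, as were 19.8% of all tested genes. Nqo1 had the smallest p, with a difference of 1.33 ± 0.35 (adjusted p = 0.0595 with edgeR, 0.0140 with DESeq2). Its light-treated mice were all below the untreated 5xFAD mice in HPC and all above them in meninges. Gclc differed by −1.67 ± 0.48 (adjusted p = 0.0802 with edgeR, 0.0274 with DESeq2) and Cat by 0.86 ± 0.28 (0.109 and 0.0443). Without meninges 5xFAD replicate 4, Cat and Nqo1 passed with edgeR, at adjusted p-values of 0.0296 and 0.0337. The untreated 5xFAD mice enter both the 5xFAD and the light effect.

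**Figure D4:**
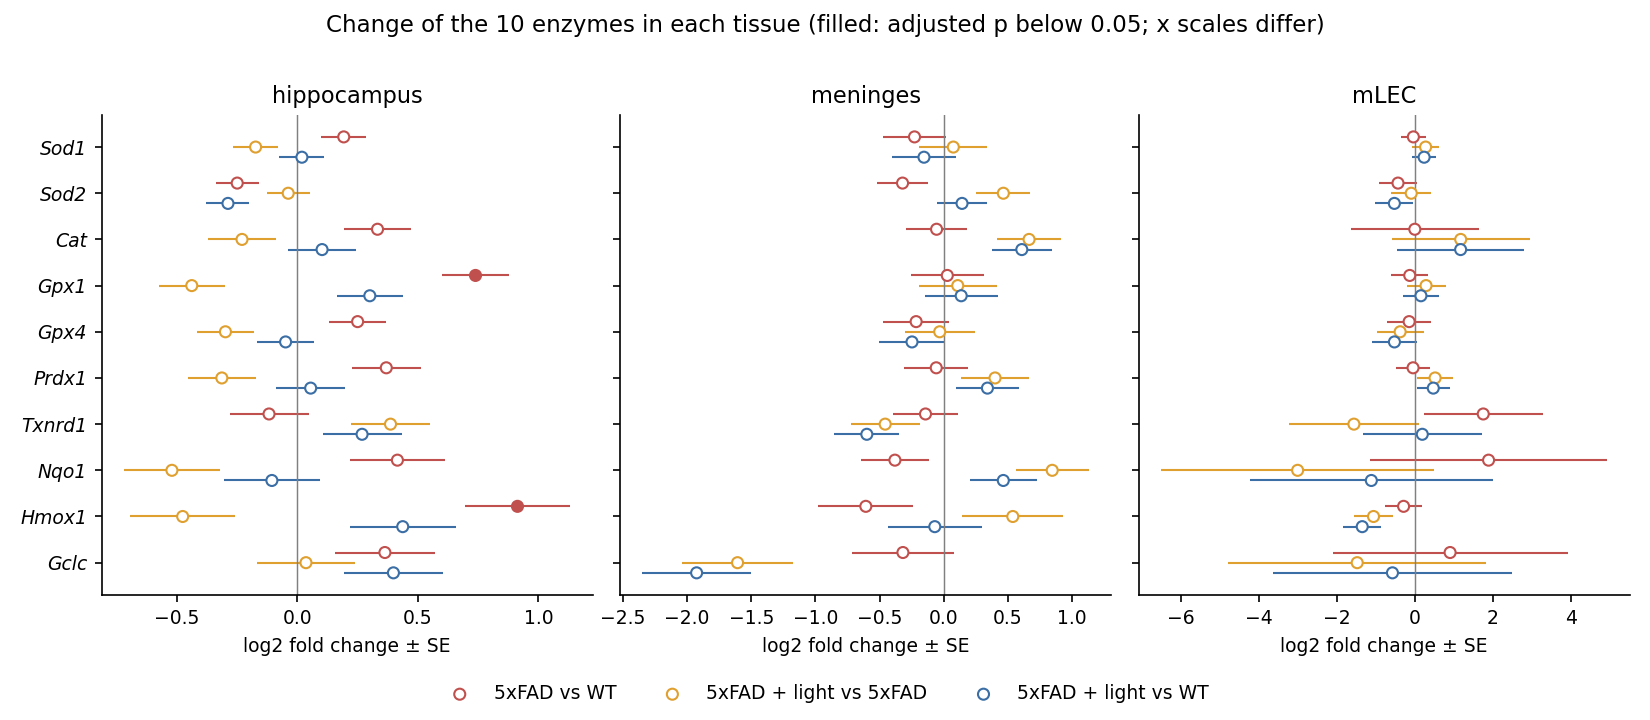
Log2 fold change ± SE (x axis, edgeR) of each of the 10 enzymes in HPC, meninges and mLECs for the 3 comparisons, with x scales that differ between panels. Filled points passed an adjusted p of 0.05, which were Gpx1 and Hmox1 for 5xFAD against WT in HPC. The SE is widest in mLECs, up to 3.51 for Nqo1.

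In the sorted mLECs no enzyme passed the test in any comparison, with edgeR or with DESeq2, and 0%, 0% and 0.0122% of the 8188 tested genes passed with edgeR for 5xFAD against WT, light against untreated and light against WT. At an unadjusted p under 0.05 there was 1 enzyme, Hmox1 with light against WT. The spread between these libraries was large, with a biological coefficient of variation of 1.89 against 0.198 in HPC and 0.350 in meninges. Even large differences could go uncalled here, such as 8.06-fold for Nqo1 with light against untreated (log2 fold change −3.01 ± 3.51).

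Hmox1 was 474, 198, 406 and 239 FPKM in WT, 272, 326 and 321 in 5xFAD and 175, 108 and 153 in 5xFAD + light mLECs. All 3 light-treated libraries lay below all libraries of both other groups, and the WT libraries low in Hmox1, replicates 2 and 4, were those with few lymphatic marker transcripts. The log2 fold change of light against WT was −1.35 ± 0.49 (adjusted p = 0.740, edgeR) and that of light against untreated 5xFAD was −1.06 ± 0.51 (adjusted p = 1). Non-overlap was found for 1 of the 10 enzymes in each, and for 5.67% and 10.1% of all tested genes. Without WT replicates 2 and 4 the difference of Hmox1 from WT was −1.80 ± 0.44 (adjusted p = 0.573). The lymphatic marker sum itself was 2940 to 9572 FPKM in light-treated and 1067 to 4429 in untreated 5xFAD libraries, and its part in the values of Hmox1 was not tested. Replicate 4 of the untreated 5xFAD mLECs held an erythroid marker sum of 6266 FPKM against at most 302.5 in the other 9 libraries, and without it Hmox1 with light against untreated was −1.002 ± 0.59.

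Txnrd1 was 0, 8.79, 55.6 and 19.2 FPKM in WT and 56.0, 104 and 80.5 in 5xFAD mLECs, and 56.5, 15.3 and 15.5 with light. The untreated 5xFAD libraries were above all WT libraries, the lowest of them by less than 1 FPKM (log2 fold change 1.76 ± 1.53, adjusted p = 1.00, edgeR). Non-overlap in this comparison was found for 1 of the 10 enzymes and for 6.23% of all tested genes. A count of 0 in WT replicate 1 allows up to 0.0434 FPKM at 3 counts, for counting error only.

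The abundant enzymes were steadier in mLECs. Sod1 was 1676 ± 279.6 FPKM (SD, n = 4) in WT, 1839 ± 35.2 (n = 3) in 5xFAD and 2200.2 ± 473 (n = 3) with light. Gpx1 was 861, 381, 908 and 360.4 in WT, 706, 622 and 650.5 in 5xFAD and 1006, 521 and 958 with light. The WT libraries fell into a high and a low pair for Gpx1 and for Gpx4 (493, 227, 733 and 206 FPKM), the low pair again being replicates 2 and 4. Without these 2, Gpx1 with light against WT was −0.38 ± 0.39 in place of 0.16 ± 0.47, and Gpx4 was −1.10 ± 0.48 in place of −0.52 ± 0.57, both with an adjusted p of at least 0.825 (edgeR). For 5xFAD against WT the values without these 2 were −0.67 ± 0.39 for Gpx1, −0.72 ± 0.48 for Gpx4, −0.74 ± 0.44 for Hmox1 and −0.26 ± 0.33 for Sod1, in place of −0.13, −0.15, −0.29 and −0.04, all with an adjusted p of 0.999.

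Sod2, the mitochondrial dismutase, was 69.6, 69.2, 198 and 85.1 FPKM in WT, 162, 194 and 49.5 in 5xFAD and 179, 49.2 and 33.0 with light. These FPKM values did not follow the expected counts. The highest counts, 12174 in WT replicate 4 and 8875 in WT replicate 1, were at 85.1 and 69.6 FPKM. WT replicate 3, at 198 FPKM, had 6482 counts. The FPKM groups overlapped widely. For 5xFAD against WT the log2 fold change was −0.43 ± 0.49 by edgeR on counts and 0.29 by limma on log2(FPKM + 1). The 2 measures thus differed in sign, and no direction can be given. Cat ran from 0.3 to 82.9 FPKM over the mLEC libraries. Nqo1 was at 0 in 3 and Gclc at 0 in 3 of the 10 libraries, where 3 counts correspond to 0.0355 to 0.126 FPKM, and neither exceeded 15.2 FPKM in any. Prdx1 was 229 to 425 FPKM in WT, 233 to 394 in 5xFAD and 330 to 582 with light. The microglial markers Csf1r, Cx3cr1 and others summed to at most 5.88 FPKM in all mLEC libraries, and blood endothelial markers (Cldn5, Flt1, Pecam1, Cdh5, Kdr) to 840 to 2715. Choroid plexus markers summed to 76.4 to 797 FPKM in these libraries, astrocyte markers to 96.2 to 444 and fibroblast markers to 14.0 to 612. The part of these markers in the enzyme values was not tested.

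**Figure D5:**
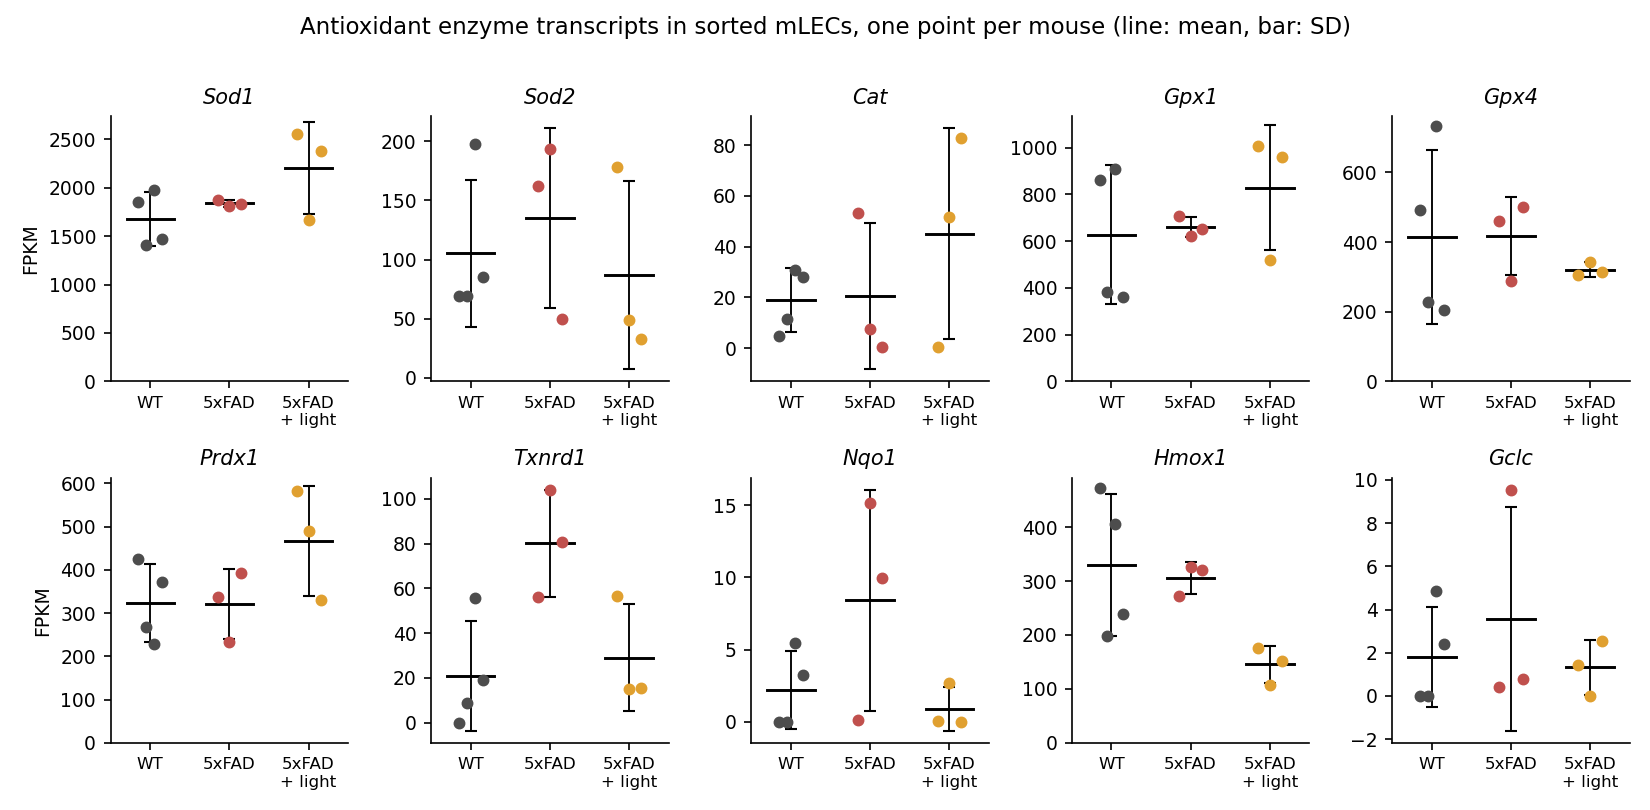
FPKM (y axis) of each of the 10 enzymes in sorted mLECs, 1 point per mouse, with the mean as a line and the SD as a bar (n = 4 WT, 3 5xFAD, 3 5xFAD + light). For Hmox1 the light-treated libraries lie at 108 to 175, below the lowest WT library at 198 and the lowest 5xFAD library at 272.

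A further 47 genes of redox balance were read by role, 6 of which encode subunits of the superoxide-producing NADPH oxidase. In HPC, 12 of 44 tested were higher in 5xFAD than in WT mice and 0 lower, with a median log2 fold change of 0.21, where 8.54% of all tested genes passed. The oxidase gave 5 of these 12. Its membrane subunit Cyba was 15.7 to 19.6 FPKM in WT and 55.2 to 102 in 5xFAD mice (2.05 ± 0.25), and the cytosolic subunit Ncf1 (1.58 ± 0.20) also rose. The catalytic subunit Cybb had at most 0.21 FPKM in WT and 0.67 to 1.56 in 5xFAD mice (3.28 ± 0.48). Cybb passed the filter on low values in HPC only through the untreated 5xFAD mice, so its call is not independent of that filter. Nfe2l2, which encodes NRF2, was 5.9 to 8.87 FPKM in WT and 13.8 to 19.4 in 5xFAD mice (1.09 ± 0.18, adjusted p = 0.00185, edgeR). Prdx6 (0.81 ± 0.14), the ferritin light chain Ftl1 (0.80 ± 0.14) and the biliverdin reductase Blvrb (0.63 ± 0.11) were also among the 8 of smallest p. Without the libraries of high choroid plexus sum, Ftl1 (0.68) and Blvrb (0.56) no longer passed. No gene of the thioredoxin system (7 tested) or of NADPH supply (5 tested) was called.

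With light, 0 of 44 passed against untreated 5xFAD mice, 12 had an unadjusted p under 0.05 (18.3% of all tested genes did), and the smallest p belonged to the secreted peroxidase Gpx3 (−1.02 ± 0.25, adjusted p = 0.0822 with edgeR, called with DESeq2) and the extracellular dismutase Sod3 (−0.45 ± 0.14, adjusted p = 0.138). Without the libraries of high choroid plexus sum these were −1.12 ± 0.31 and −0.61 ± 0.17. Against WT, 4 of 44 were higher in light-treated mice, where 3.59% of all tested genes passed. Among the 4 were the oxidase subunits Cyba (1.64), Ncf1 (1.27) and Cybb (2.61). Cybb was at 0.3 to 0.86 FPKM in light-treated HPC, so that both groups lay below the filter of 1 FPKM. In meninges 0 of 47 passed in each comparison. The smallest p belonged there to the glutathione reductase Gsr (0.50 ± 0.25) and Sod3 (−0.37 ± 0.20) for 5xFAD against WT, to Mafg, a partner of NRF2 on DNA (−0.90 ± 0.27), and the sulfiredoxin Srxn1 (−1.93 ± 0.68) for light against untreated, and to Mafg (−1.02 ± 0.26) and Cybb (0.77 ± 0.24) for light against WT. These had adjusted p-values from 0.142 for Mafg to 0.987, and DESeq2 called Mafg against WT.

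Between the WT tissues 30 of the 47 were higher and 6 lower in meninges, where 73% of all tested genes passed, with the plasma peroxidase Gpx3 at 7.50 ± 0.37 and Nfe2l2 at 3.06 ± 0.21 on the log2 scale. Cybb (5.73 ± 0.42), the endoplasmic reticulum peroxidase Gpx8 (4.69 ± 0.36), Ftl1 (2.65 ± 0.21), Blvrb (2.59 ± 0.17), Mgst1 (2.41 ± 0.18) and Sod3 (2.19 ± 0.15) complete the 8 of smallest p. The 5xFAD effect was lower in meninges than in HPC for 5 of 47 (1.74% of all tested genes passed in either direction), among them Cybb (−3.15 ± 0.53), Cyba (−2.23 ± 0.56), Prdx6 (−1.10 ± 0.26) and Sod3 (−0.92 ± 0.21). The calls of Cyba, Prdx6 and Sod3 were lost in several other settings, at adjusted p-values in the first fit of 0.0447, 0.0267 and 0.0267 (edgeR). For the light effect 0 of 47 passed with edgeR, with Mafg at −1.03 ± 0.27 and Sod3 at 0.71 ± 0.22, both called with DESeq2.

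In mLECs 0 of 37 tested genes passed with edgeR in each comparison, and 1, 2 and 1 were under an unadjusted p of 0.05, as were 3.81%, 4.01% and 6.72% of all tested genes. The genes of smallest p were mostly those at 0 in a whole group. Gsta4, a glutathione transferase of lipid aldehydes, was at 0 in all 3 untreated 5xFAD libraries, 0 to 62.7 FPKM in WT and 0.08 to 51.0 with light. Pgd, of the pentose phosphate pathway, was at 0 in all 3 light-treated libraries, 0 to 81.5 FPKM in WT and 0.66 to 13.9 in untreated 5xFAD libraries. Gpx8 was at 0 in all 3 light-treated and in part of the WT libraries, which reached 5.86 FPKM, and Gstm1 gave −0.99 ± 0.52 for 5xFAD against WT. DESeq2 called Gsta4, Pgd and Gpx8 in the comparisons with these empty groups.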

How the data were processed

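Total RNA from 32 samples was made into Smart-seq2 libraries and sequenced on a NovaSeq. The study's methods name fastp and RSEM for read cleaning and quantification, while the submitters' processing notes name Trimmomatic, HISAT2, StringTie, DESeq2 and mm10 with no role or order, so the tool behind each value cannot be told apart, and multi-mapping reads may have been shared between genes. The authors deposited an expected count and an FPKM value per gene and sample, in 1 table for HPC and meninges and another for mLECs. The tables were normalised separately, so mLECs were not tested against the tissues. No deposited fold changes were used.

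Groups and replicate numbers came from the labels. Rounding came first, and the resulting counts entered the quasi-likelihood test of edgeR 4.0.16 with TMM scaling (R 4.3.3). Genes entered when 3 or more libraries of a tissue reached an FPKM of 1. The 3 groups of a tissue shared 1 fit, and HPC and meninges shared a fit of 6 groups for the tissue contrast and the interactions. The p-values were adjusted by Benjamini-Hochberg over all tested genes, with a threshold of 0.05. Each p-value measures the spread between libraries, each from 1 mouse. The labels do not say whether HPC and meninges libraries came from the same mice. The fit of 6 groups treats them as separate mice, which was not tested. Alternatives were median-of-ratios scaling, no filter or a mean FPKM of at least 5, DESeq2 1.42.0, limma 3.58.1 on log2(FPKM + 1) or log2(FPKM + 0.1), an added 2-fold limit, a block on replicate number, fits of only the groups being compared, and fits without each replicate in turn. The length offset and the settings that leave out libraries by their lymphatic or choroid plexus sum were chosen after seeing the data. The code was tested on simulated data.

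The 10 enzymes and all lists were chosen with earlier results of these data known. Every enzyme is named. Of the 47 further genes, those called are named, or the 8 of smallest p where more passed, or the 2 of smallest p where none did. A gene that this rule selects is not reported here. For each enzyme the 2 genes most alike in pattern are also named. Of 76 genes with no symbol in the mLEC table, 75 were named through GENCODE, Gpx4 among them. No enzyme shares exonic bases with another gene in that annotation. Replicates of a group differed by more than sampling noise (chi-square per degree of freedom of at least 9.25). Expected counts limit the precision at the totals given above, and limits for a count of 0 cover counting error only.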

Additional observations from a re-analysis of the deposited data

Results flagged for a closer look

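Sod2 in WT mLECs had 1 library far above the others of its group in FPKM. Replicate 3 was at 198 FPKM and the other 3 at 69.2 to 85.1, and the gap to its nearest neighbour was 0.877 of the group's whole range. Of the 50 gene-and-group pairs with 4 samples that were read this way this was the only one, and chance gives about 1 in 20 groups such a gap. The expected count of Sod2 in replicate 3 was 6482, among the other 3 at 6037 to 12174. Read totals were 16033785 in replicate 3 and 17335375 to 24041115 in the others. The gap was thus in the FPKM values and not in the counts, and its cause was not tested.

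Nqo1 was flagged because its groups did not overlap with light, in opposite directions in the tissues. It passed the test in neither (adjusted p = 0.191 in HPC and 0.303 in meninges, edgeR). Non-overlap was found for 7.63% of all tested genes in HPC and 20.8% in meninges. All light-treated mice lay below the untreated 5xFAD mice in HPC and above them in meninges, and the light effect was higher in meninges by 1.33 ± 0.35 on the log2 scale. This interaction had an adjusted p of 0.0595 with edgeR and 0.0140 with DESeq2, so that it passed with the latter tool only.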

How the results depend on the processing

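Of 120 log2 fold changes of the 10 enzymes, 36 changed sign in some setting, in 118 instances. None of these was called and each was smaller than its standard error, and the cause was not tested.

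The count of enzymes called for 5xFAD against WT in HPC, 2 by edgeR, was 0 with a 2-fold limit added, 1 without the libraries of high choroid plexus sum, 3 with DESeq2, which also called Sod2, and 1 to 2 with single replicates left out. For light against WT in HPC it was 1 with DESeq2 and 1 in a fit of the compared groups alone. DESeq2 called 1 enzyme for light against untreated and 1 for light against WT in meninges, where leaving out replicates gave 0 to 1, 1 for the 5xFAD effect between tissues, where leaving out replicates gave 0 to 1, and 3 for the light effect, where it gave 0 to 2. For WT meninges against WT HPC the 9 calls became 6 with the 2-fold limit.

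Counts over all tested genes moved more. In HPC they were 556 to 1721 over the alternatives chosen first for 5xFAD against WT (1108 by edgeR), 0 to 641 for light against untreated (59) and 238 to 1075 for light against WT (466). DESeq2 called 79 and 437 genes in the light comparisons of meninges, where edgeR called 2 each and 134 against WT without WT replicate 2, and 185, 357 and 464 in the mLEC comparisons, where edgeR called 0, 0 and 1. The 5xFAD effect between tissues had 149 to 515 calls (263 by edgeR) and the light effect 19 to 735 (159). The median log2 difference of all tested genes between WT meninges and WT HPC was 0.12, and 0.42 without the filter on low values.

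With limma on log2(FPKM + 1), Gpx1 was 0.20, Gpx4 0.17, Sod1 0.15 and Sod2 0.29 for 5xFAD against WT in mLECs, Gpx1 was −0.0016 for 5xFAD against WT in meninges, Prdx1 was −0.0068 for light against WT in HPC and Txnrd1 was 0.012 for the 5xFAD effect (meninges minus HPC). With limma on log2(FPKM + 0.1), Cat was −0.054 and Gclc 0.31 for light against WT in mLECs, Gpx1 was 0.20, Gpx4 0.17, Sod1 0.15 and Sod2 0.29 for 5xFAD against WT in mLECs, Gpx1 was −0.0016 for 5xFAD against WT in meninges, Prdx1 was −0.0069 for light against WT in HPC and Txnrd1 was 0.016 for the 5xFAD effect (meninges minus HPC). With a mean FPKM of at least 5, Cat was 0.054, Prdx1 0.030 and Sod1 0.028 for 5xFAD against WT in mLECs and Txnrd1 was 0.0074 for the 5xFAD effect (meninges minus HPC). Without the filter on low values, Gpx1 was −0.016 for 5xFAD against WT in meninges, Gpx4 was 0.039 for light against 5xFAD in meninges and Txnrd1 was −0.026 for WT meninges against WT HPC. In a fit of the compared groups alone, Cat was 0.044, Prdx1 0.012 and Sod1 0.010 for 5xFAD against WT in mLECs. With the length offset, Cat was 0.0047 for 5xFAD against WT in meninges and Gpx1 was −0.054 for light against 5xFAD in meninges. Without the mLEC libraries of low lymphatic sum, Cat was 0.073 for 5xFAD against WT in mLECs and Gpx1 was −0.38 and Txnrd1 −0.21 for light against WT in mLECs. Without the HPC libraries of high choroid plexus sum, Gclc was −0.048 for light against 5xFAD in HPC and Sod1 was −0.0050 for light against WT in HPC.

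With single replicates left out, the enzymes whose sign changed had these ranges. For 5xFAD against WT in mLECs, Cat ran from −2.36 to 0.63, Gclc −1.69 to 2.19, Gpx1 −0.36 to 0.18, Gpx4 −0.40 to 0.35, Hmox1 −0.45 to 0.025, Prdx1 −0.12 to 0.21 and Sod1 −0.14 to 0.11. For 5xFAD against WT in meninges, Cat ran from −0.33 to 0.13, Gclc −0.55 to 0.17, Gpx1 −0.11 to 0.15 and Prdx1 −0.19 to 0.080. For light against 5xFAD in HPC, Gclc ran from −0.12 to 0.27 and Sod2 −0.095 to 0.0010. For light against 5xFAD in mLECs, Gclc ran from −2.40 to 1.13 and Sod2 −0.44 to 0.22. For light against WT in mLECs, Gclc ran from −1.50 to 0.74, Gpx1 −0.073 to 0.49 and Txnrd1 −0.99 to 1.53. For light against 5xFAD in meninges, Gpx1 ran from −0.27 to 0.28, Gpx4 −0.19 to 0.079 and Sod1 −0.057 to 0.25. For light against WT in meninges, Gpx1 ran from −0.24 to 0.31, Hmox1 −0.60 to 0.23, Sod1 −0.29 to 0.025 and Sod2 −0.039 to 0.25. For light against WT in HPC, Gpx4 ran from −0.18 to 0.034, Nqo1 −0.19 to 0.074, Prdx1 −0.054 to 0.16 and Sod1 −0.027 to 0.068. For the 5xFAD effect (meninges minus HPC), Sod2 ran from −0.14 to 0.0035 and Txnrd1 −0.19 to 0.085. For WT meninges against WT HPC, Txnrd1 ran from −0.078 to 0.16.

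Within a tissue the replicate numbers gave little sign of pairing mice of different groups. Deviations of same-numbered libraries correlated by over 0.1 in 0 of 12 pairs in HPC, 2 of 9 in meninges and 0 of 8 in mLECs. Same-numbered libraries of HPC and meninges were not compared in this way. The block changed no call of an enzyme and gave 840, 56 and 392 called genes in HPC, 0, 0 and 0 in meninges, 0, 0 and 3 in mLECs, 10908 for the WT tissues, and 174 and 19 for the 5xFAD and light effects between tissues. With the replicate number as a block, Cat was 0.24, Gpx1 0.23, Gpx4 0.20 and Sod1 0.043 for 5xFAD against WT in mLECs, Gclc was 2.69 and Nqo1 0.89 for light against WT in mLECs, Gpx1 was −0.12 for light against 5xFAD in mLECs, Gpx1 was −0.023 for light against WT in meninges and Gpx1 was −0.12 for 5xFAD against WT in meninges.

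The spread between mice limits what could be called in meninges and mLECs, whose biological coefficients of variation were 0.350 and 1.89 against 0.198 in HPC. Read totals were lowest in meninges, and the mLEC values rest on libraries that detected the fewest genes.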

Other observations

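The genes whose pattern was most like that of each enzyme were read over the 22 HPC and meninges samples, after each tissue's mean of log2(FPKM + 1) was subtracted, among 11557 genes. The values are Pearson correlations given as a description with no p, since the points share libraries, groups and depth, and the genes are the highest of many. Gpx1 was most like Oas1a and Psme2, both interferon-induced (0.902 each), and Hmox1 most like Was and Fermt3, which act in the cytoskeleton and adhesion of blood cells (0.861 and 0.841). Gpx4 was most like Tmem141 (0.926) and Phpt1 (0.904), and Sod1 most like Hint2 (0.905) and Fuom (0.886). Prdx1 followed Ntan1 (0.891) and Scp2, a peroxisomal sterol carrier (0.888). Cat followed Cav2 (0.840) and Tspan14 (0.832), and Nqo1 followed Btd (0.849) and Pgm2 (0.837). The genes nearest to Gclc were Nlgn2, a postsynaptic adhesion protein (0.929), and Eif4g3 (0.921). Sod2 was nearest to Gpd1l (0.859) and Poc5 (0.856), and Txnrd1 to Ttc39c (0.862) and Sart3 (0.849).

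Among the enzymes themselves, Prdx1 and Nqo1 (0.828), Sod1 and Gpx4 (0.808) and Gpx1 and Hmox1 (0.717) had like patterns by the same measure. Gclc ran opposite to Cat (−0.736) and to Nqo1 (−0.665).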
